A study of Mus musculus with 30 samples.

Results

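The 10 B16.GFP.gB.luc control tumors were ordered by their level of Ptprc, the gene of CD45, and every other gene was related to that order. They are 10 of the 30 tumors of the study. All 30 grew from B16-F10 melanoma cells placed under the skin of female C57BL/6 mice and were taken whole 8 days later, with 10 tumors of each type. The cells of all 3 types had been transduced by retrovirus with glycoprotein B of herpes simplex virus, luciferase and a fluorescent marker. B16.GFP.gB.luc cells carried the empty GFP vector, B16.IFNα4.gB.luc cells secreted IFNα4, and those of the B16.IFNα9.gB.luc line IFNα9, and their tumors are called IFNα4 and IFNα9 tumors below. Each type was grown from 1 engineered cell line and the labels give each tumor no more than its type, day and replicate number, which is used below to name it. Total counts of the 10 control tumors ran from 14598517 to 18669856, with a median of 17071394.

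CD45 is a receptor tyrosine phosphatase that sits on the surface of almost every nucleated blood-derived cell and adjusts signalling from antigen receptors and integrins. Tumor cells, fibroblasts, endothelium and keratinocytes lack it, so that its transcript is widely read as a measure of leukocytes in solid tissue. Subcutaneous B16 tumors hold macrophages, monocytes, dendritic cells and few lymphocytes, and a whole tumor is taken with some skin, fat and muscle. In bulk RNA, fewer leukocytes and less Ptprc RNA per leukocyte cannot be told apart.

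Ptprc (ENSMUSG00000026395.16, on the minus strand of chromosome 1 from 138062861 to 138175708 in GRCm38) had 17.9 CPM in tumor 7, 48.1 in tumor 2, 67.4 in tumor 6, 71.0 in tumor 3 and 77.4 in tumor 4. It had 83.3 CPM in tumor 9, 89.1 in tumor 10, 95.1 in tumor 8, 110.6 in tumor 1 and 114.9 in tumor 5. The mean was 77.5 ± 28.9 CPM (SD, n = 10). On the log2 scale the tumors ran from 4.17 in tumor 7 and 5.59 in tumor 2 to 6.85 in tumor 5, and the 8 tumors other than 7 and 2 spanned only 0.77. Tumors 7 and 2 thus held most of the range, and tumor 7, with 219 reads on Ptprc against 938 to 2148 in the others, was the most extreme. The rising and falling genes below were chosen by these measured Ptprc values and by the genes' own levels in the same tumors, so what follows within the control tumors is a description without a test.

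The other tumor types had more Ptprc. With all 30 libraries scaled together, its log2 CPM was 4.24 to 6.88 (median 6.41) in B16.GFP.gB.luc, 8.19 to 9.58 (median 8.96) in IFNα4 and 7.31 to 8.89 (median 8.40) in IFNα9 tumors. No control tumor reached the lowest tumor of either IFN-I-secreting type.

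The name leukocyte gradient was checked against 20 other genes that most leukocytes share, among them Laptm5, Coro1a, Lcp1, Dock2 and Ikzf1. Their mean log2 CPM, from the lowest to the highest Ptprc, was 3.98 in tumor 7, 4.69 in tumor 2, 5.24 in tumor 6, 5.61 in tumor 3 and 5.44 in tumor 4. It was 5.74 in tumor 9, 5.02 in tumor 10, 5.78 in tumor 8, 5.32 in tumor 1 and 5.62 in tumor 5. Tumors 7 and 2 were the lowest by both measures, but tumor 10, seventh by Ptprc, was only above tumors 7 and 2 by the other leukocyte genes, and tumor 8 was the highest. Spearman's rho between both measures was 0.64 (Pearson's r 0.87) over 10 tumors, 0.50 (r 0.59) without tumor 7 and 0.29 (r 0.12) without tumors 7 and 2. The relation between Ptprc and the other leukocyte genes therefore rested on tumors 7 and 2. The most abundant of the 20, Arhgdib, a regulator of small GTPases, went the other way, with log2 CPM of 8.63 in tumors 7 and 9 and 7.95 in tumor 2, and a rho of −0.382 over 10 and −0.762 over 8 tumors. The order is called the Ptprc order from here on, since the mean of the 20 genes was lowest in tumors 7 and 2 but did not follow Ptprc in the remaining 8 tumors.

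**Figure D1:**
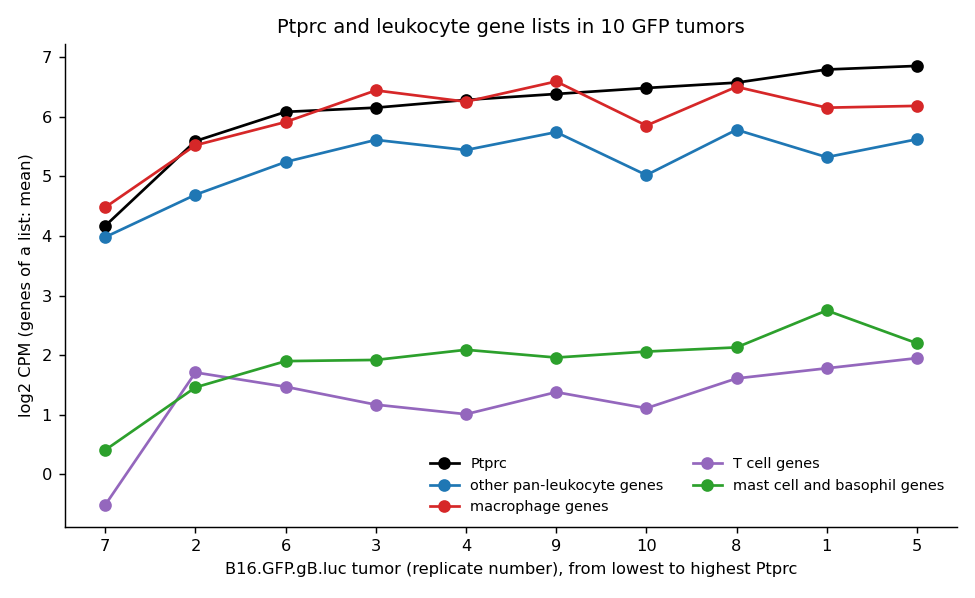
Log2 CPM of Ptprc and the mean log2 CPM of 4 gene lists (y axis) in the 10 B16.GFP.gB.luc tumors, placed from the lowest to the highest Ptprc (x axis, replicate numbers). Each point is 1 tumor; all lines start low in tumor 7, the macrophage and pan-leukocyte lines then cross the order with a dip in tumor 10, and the mast cell line climbs from 0.41 to 2.75 with its highest point in tumor 1.

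The same comparison could be tested in the tumors that had no part in the order. In IFNα4 tumors, the mean of the 20 genes had a rho of 0.70 with Ptprc (permutation test with 100000 resamples, two-sided, p = 0.0309, adjusted p = 0.0309) and an r of 0.81 (p = 0.0046, adjusted p = 0.00613). In IFNα9 tumors, rho was 0.88 (p = 0.00179, adjusted p = 0.00358) and r was 0.91 (p = 0.00018, adjusted p = 0.00072), with p adjusted over these 4 tests. Without the 2 tumors farthest from the median of Ptprc, r was 0.48 in IFNα4 and 0.83 in IFNα9 tumors, so that the relation held in IFNα9 tumors and rested in part on IFNα4 tumors 8 and 1. Whether the 3 types differed in this relation was not tested.

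Tumor 7 stood apart in far more than leukocytes. Of the leukocyte genes in 12 lists, 151 averaged 10 counts or more, and 123 of these had their lowest level in tumor 7, while of all 15559 genes 5020 (32.3%) were lowest there and 4661 were highest there. The mean log2 CPM of T cell genes was −0.51 in tumor 7 and 1.01 to 1.95 in the others, and that of 20 fibroblast genes, led by the collagens Col3a1 and Col1a2, was 6.73 against 7.62 to 8.66. Melanocyte pigment genes went the other way, at 8.78 in tumor 7 and 7.35 to 7.99 in the others, and Gpr143, a melanosome receptor of that list, was 5.72 against 3.47 to 4.49. Xist, which is transcribed from the inactive X of female cells such as those of the host, was 5.05 in tumor 7 and 8.08 to 9.79 elsewhere.

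Across 10 tumors, 267 of 15559 genes (1.72%) rose with Ptprc and 179 (1.15%) fell, where a rising gene had a rho of at least 0.8 over all 10 tumors and again over the 9 without tumor 7, and a falling gene a rho of at most −0.8 in both. Over all 10 tumors alone, 482 genes were at or above 0.8 and 393 at or below −0.8, and over the 9 tumors 285 and 193. Of the rising genes 148, and of the falling genes 104, also held the limit over the 8 tumors without tumors 7 and 2. With libraries scaled by their totals in place of TMM, 605 genes rose and 137 fell, of which 251 and 67 were shared with the 267 and 179. The counts also moved with single tumors: without tumor 7, 3 or 10 throughout, 159, 411 and 403 genes rose, and without tumor 7, 6 or 10, 103, 368 and 306 fell. The median rho of all genes was 0.03 over 10 and 0.00 over 9 tumors. At the limit, 47 rising genes had their weaker rho at 0.80 and 3 genes just outside had 0.794, while 41 falling genes stood at −0.80 and 1 gene just outside at −0.794.

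**Figure D2:**
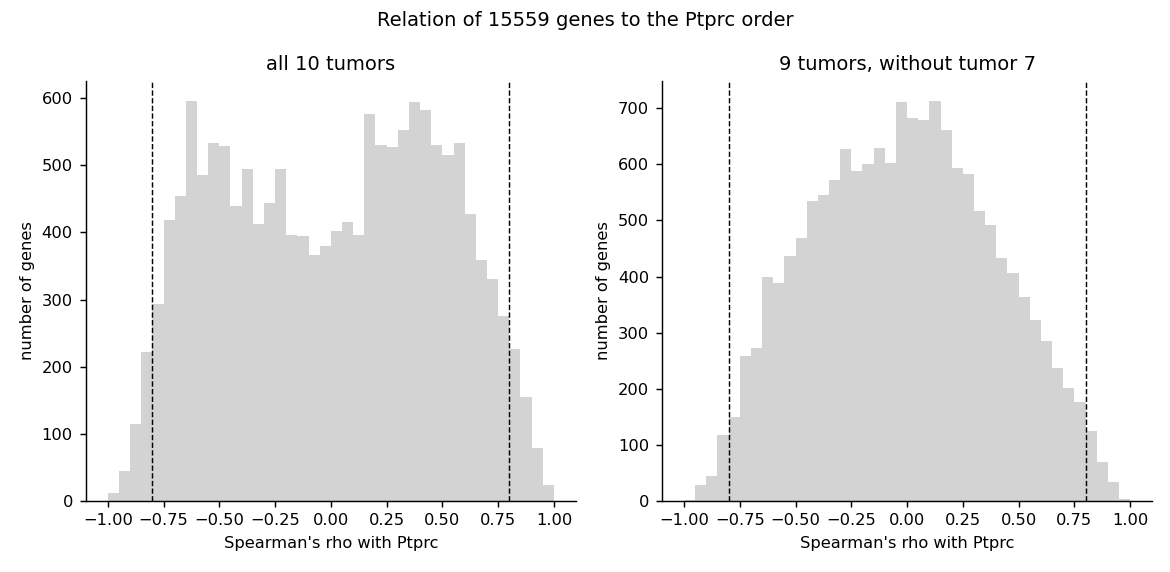
Number of genes (y axis) by Spearman's rho with Ptprc (x axis, bins of 0.05) over all 10 B16.GFP.gB.luc tumors and over 9 tumors without tumor 7. Dashed lines mark 0.8 and −0.8; 482 and 393 genes lie at or beyond them on the left panel and 285 and 193 on the right, with medians of 0.03 and 0.00.

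Klrk1 followed the order most closely. It encodes NKG2D, an activating receptor of NK cells and CD8+ T cells for stress-induced ligands, and lies on the minus strand of chromosome 6 from 129610323 to 129623864. Its log2 CPM, in the Ptprc order, was 0.59, 2.67, 2.82, 2.93, 2.91, 2.94, 3.18, 3.23, 3.36 and 3.86. Only tumors 3 and 4 changed places, which gave a rho of 0.988 over 10 and 0.983 over 9 tumors, at a mean of 7.99 ± 3.29 CPM (SD, n = 10).

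Other immune receptors stood among the 12 genes closest to the rising order. Btla, an inhibitory receptor of lymphocytes and dendritic cells, had log2 CPM of 0.13 in tumor 7, 0.89 in tumor 2, 1.44 to 1.78 in the next 5 tumors, and 2.23, 2.80 and 2.57 in tumors 8, 1 and 5. Nod2, a sensor of bacterial muramyl dipeptide, was 0.24 in tumor 7, 2.32 in tumor 2 and 3.19 in tumor 5. Slfn5, an interferon-inducible gene, was 4.61 in tumor 7, 6.55 in tumor 2 and 7.69 in tumor 5. Tumor 7 was the lowest for each of these genes, by a wide gap for Nod2 and Slfn5, while Btla changed more among the upper 8 tumors than between tumors 7 and 2. Tlr11, Mrgprb1, Il1rl2, Tent5a, Serpina3j, Gpr141b and Gm21955 were also among them, as was Sema3c, a secreted guidance factor made by stromal cells, which rose from 4.91 in tumor 7 and 5.85 in tumor 2 to 7.17 in tumor 5. Mean levels of the 12 genes ran from 1.32 CPM (Tlr11) to 140.0 CPM (Slfn5).

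**Figure D3:**
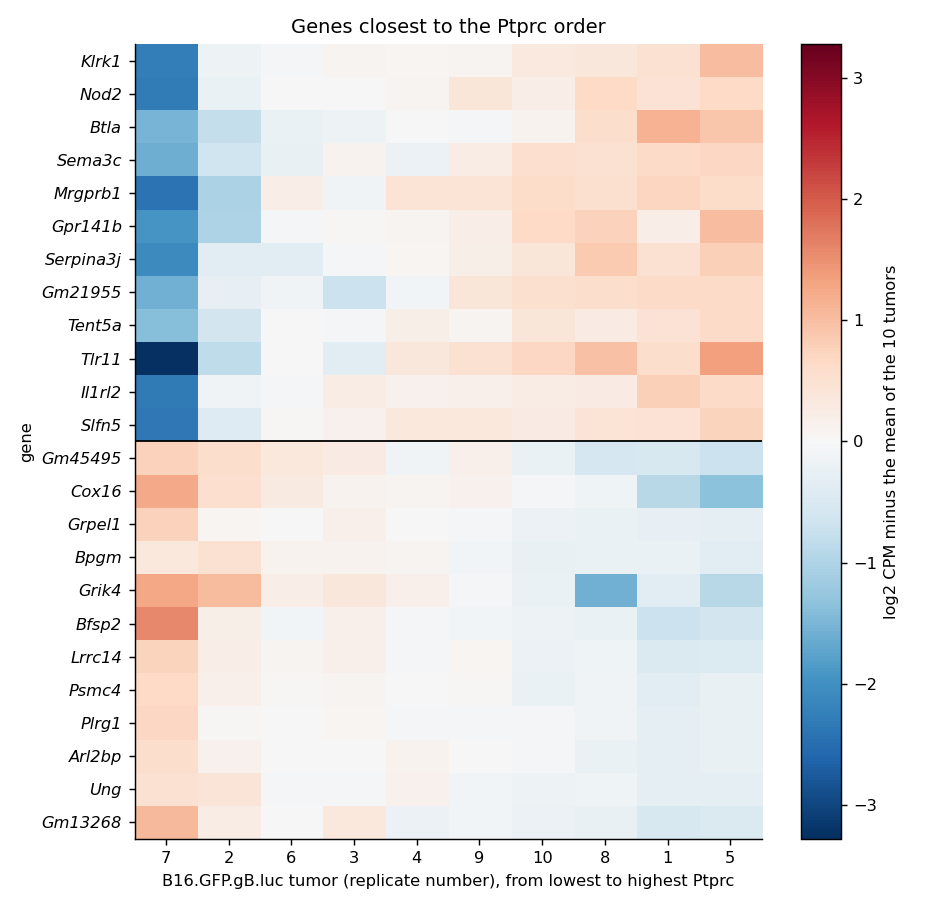
Log2 CPM minus the mean of the 10 tumors (color) for the 12 genes with the highest and the 12 with the lowest rho (rows, split by the line), in the B16.GFP.gB.luc tumors from the lowest to the highest Ptprc (columns). Tumor 7 is the lowest column for all of the upper rows and the highest for all of the lower rows except Bpgm, for which tumor 2 is the highest.

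Leukocyte lists differed in how well they kept the order. Of the 151 leukocyte genes, 10 rose and 0 fell (6.62% against 1.72% of all genes), and their median rho was 0.48 over 10, 0.30 over 9 and 0.21 over 8 tumors. The 10 were Klrk1, Btla, Ms4a2, Klf4, Xcr1, Flt3, Il33, Siglech, Cd209a and Ikzf1. Of these, Il33, an alarmin released by stromal and epithelial cells, and Klf4, a transcription factor of monocytes and of epidermis, are not made by leukocytes alone.

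Classical dendritic cell genes had the highest median over 10 and 9 tumors, 0.78 and 0.69, with 0.63 over 8 tumors, equal to that of keratinocyte and hair genes, and 4 of 14 rose, against 1.72% of all genes. Flt3, the receptor of the growth factor for dendritic cells, had log2 CPM of 0.13 in tumor 7, 1.81 in tumor 2 and 3.24 in tumor 5, with a rho of 0.915. Xcr1, the chemokine receptor of cross-presenting dendritic cells, was 0.13 in tumor 7, −0.18 in tumor 2 and 2.44 in tumor 5 at a mean of only 2.41 CPM. Cd209a, a lectin of monocyte-derived and dermal dendritic cells, had a rho of 0.879. Within the list Batf3 and Fscn1 had rho of −0.067 and 0.03.

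Of the list means, that of the mast cell and basophil list came closest to Ptprc by rho over 10 tumors. The mean of its 8 genes was 0.41 in tumor 7, 1.46 in tumor 2, 1.90 to 2.13 in the next 6 tumors, 2.75 in tumor 1 and 2.20 in tumor 5. Its rho with Ptprc was 0.95 over 10, 0.93 over 9 and 0.90 over 8 tumors, although the genes taken singly had a median of 0.62, 0.49 and 0.33. Ms4a2, the beta chain of the high-affinity IgE receptor, had a rho of 0.939 at a mean of 1.18 CPM, and Hdc, which makes histamine, had 0.818, whereas the protease gene Cpa3 had 0.564 and Kit 0.236. Mrgprb1, of a receptor family expressed in sensory neurons and mast cells, was −0.72 in tumor 7, 0.68 in tumor 2 and 2.42 in tumor 1. The mean of ILC2 and type 2 genes had rho of 0.85, 0.80 and 0.71, but its 9 genes taken singly had medians of 0.47, 0.33 and 0.29. Il33 was the 1 gene that rose, with a rho of 0.903 and log2 CPM from 5.20 to 7.08, whereas Gata3 had 0.406 and Il4 −0.115.

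Macrophage, monocyte and Fc receptor lists had medians near 0 once tumors 7 and 2 were left out, although single members differed. The mean of 17 macrophage genes was 4.48 in tumor 7, 5.52 in tumor 2, 6.59 in tumor 9, 5.85 in tumor 10 and 6.18 in tumor 5. Its rho with Ptprc was 0.48 over 10 and −0.02 over 8 tumors. C1qa, a complement component of resident macrophages, was 6.65 in tumor 7 and 7.28 in tumor 2, but 8.72 in tumor 3 and 7.33 in tumor 10, with a rho of 0.394 over 10 and −0.19 over 8 tumors. Folr2, a folate receptor of resident macrophages, had 0.842 and 0.69, and Cybb, of the phagocyte oxidase, 0.818 and 0.643. The median rho of 15 monocyte genes and 17 Fc receptor and phagocyte genes over 8 tumors was 0.05 and 0.02. None of these 3 lists had a rising gene, which at 1.72% of all genes says little for lists of this size. Against the mean of the 20 pan-leukocyte genes, by contrast, the macrophage mean had a rho of 0.95, the Fc receptor mean 0.98 and the fibroblast mean 0.90, so that the order by Ptprc and the order by these lists were not the same.

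Of 20 T cell genes 0 and of 10 NK cell genes 1, Klrk1, rose, near the 1.72% of all genes for lists of this size, and the median rho of the lists was 0.44 and 0.47 over 10, 0.22 and 0.30 over 9, and 0.45 and 0.43 over 8 tumors. Cd3e, a chain of the T cell receptor complex, reached 4.71 CPM at most, with rho of 0.842, 0.783 and 0.69 over 10, 9 and 8 tumors, whereas Thy1, a gene of the T cell list that fibroblasts also express, had 55 to 300 CPM. B and plasma cell genes had a median of 0.34 over 10 tumors and −0.26 over 8. Neutrophil genes had medians of 0.47 over 10 and 0.33 over 8 tumors.

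Interferon-stimulated genes (ISGs) leaned toward the high end of the order. All 27 ISGs that passed the filter had a positive rho over 10 tumors and 26 over 8, against 8032 and 7250 of all 15559 genes, with medians of 0.64 and 0.38. Ifih1, a sensor of double-stranded RNA, was the 1 ISG of 27 that rose, against 1.72% of all genes, with a rho of 0.927. Its log2 CPM was 4.41 in tumor 7, 5.16 in tumor 2, 5.38 to 5.63 in the next 7 tumors and 6.17 in tumor 5. Genes induced by IFN-γ had a median of 0.28 over 10, 0.04 over 9 and 0.46 over 8 tumors, where 13 of 14 were positive. The medians of MHC class I genes were 0.46 over 10 and 0.26 over 9 tumors. For MHC class II, whose genes H2-Aa, H2-Eb1 and H2-Ab1 mark antigen-presenting cells, they were 0.53 and 0.35, and 0 of its 7 genes rose.

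Of 16 keratinocyte and hair genes 1 rose, near the 1.72% of all genes for a list of this size. It was Krt10, the keratin of suprabasal epidermis, with log2 CPM of 8.22, 9.27, 10.68, 10.20, 10.30, 10.64, 10.77, 10.93, 11.08 and 11.33 in the Ptprc order and a rho of 0.927. All 16 keratinocyte and hair genes had a positive rho over the 8 tumors, with a median of 0.63, against 0.48 over 10 and 0.28 over 9, and their mean was 4.36 in tumor 7, 9.13 in tumor 2, 8.79 in tumor 1 and 5.77 to 7.04 in the others. Fibroblast genes gave 2 of 20 rising, against the same share, among them Postn with a rho of 0.903, but a median of −0.13 over 8 tumors. Endothelial, pericyte, adipocyte and skeletal muscle genes had medians of 0.22 to 0.37 over 10 tumors and −0.29 to −0.11 over 8. The part of skin, whose genes were highest in tumors 2 and 1, in the result was not tested.

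**Figure D4:**
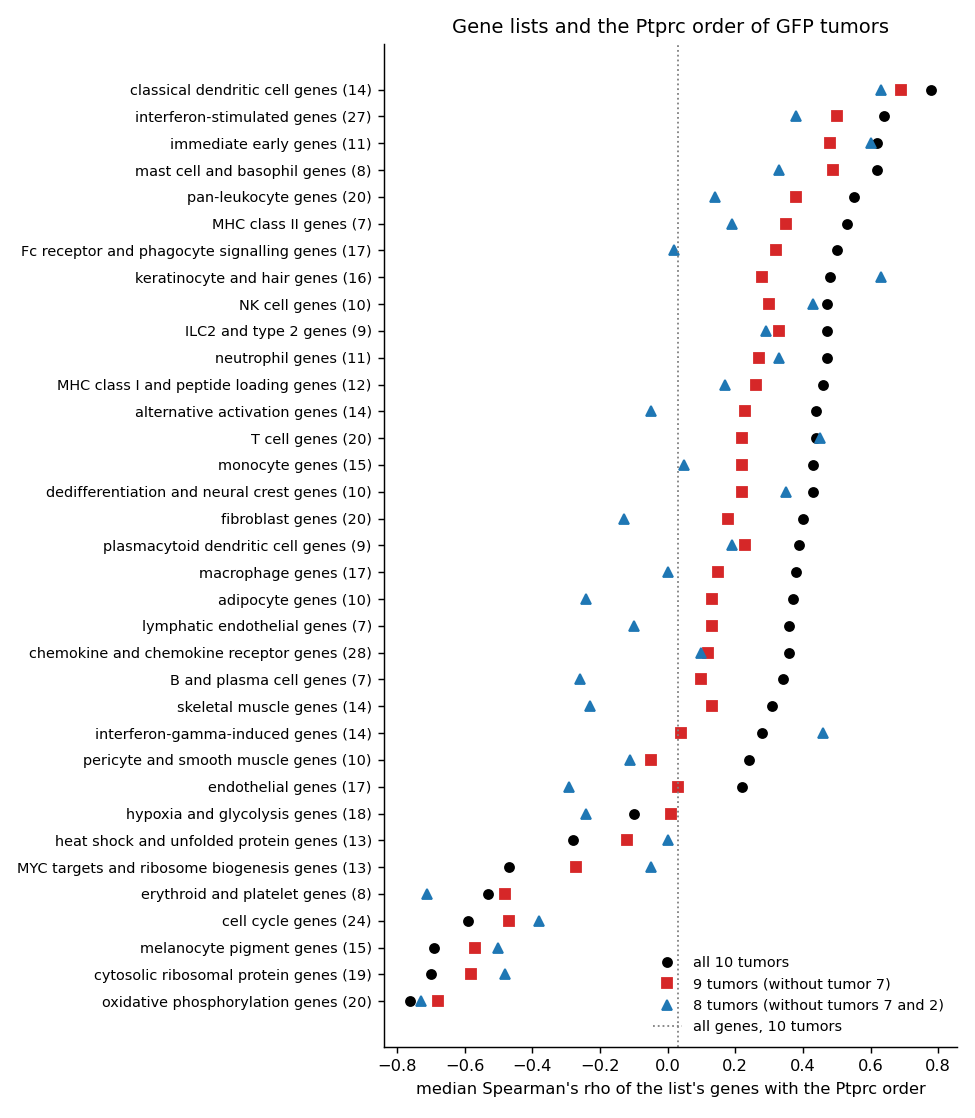
Median Spearman's rho with Ptprc of the genes in each list (x axis) for lists with at least 5 genes past the filter (y axis, number of genes in brackets), over 10 (circles), 9 (squares) and 8 (triangles) B16.GFP.gB.luc tumors. The dotted line is the median of all genes over 10 tumors, 0.03; dendritic cell genes lie farthest right, oxidative phosphorylation genes farthest left, and the fibroblast, endothelial, pericyte and macrophage lists move to 0 or below over 8 tumors.

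Among the lists, the falling end of the order was led by the respiratory chain. Oxidative phosphorylation genes had a median rho of −0.76 over 10, −0.68 over 9 and −0.73 over 8 tumors, and 4 of 20 fell, against 1.15% of all genes (Cox7a2, Atp5a1, Uqcrfs1 and Cox4i1). Cox7a2, a subunit of cytochrome oxidase, had log2 CPM of 9.05 in tumor 7, 7.52 in tumor 2, 7.93 in tumor 3 and 7.05 in tumor 5. Atp5a1, of ATP synthase, ran from 10.73 in tumor 7 to 9.54 in tumor 1. The mean of the list was 8.76 in tumor 7 and 7.51 to 8.12 in the others. Cytosolic ribosomal protein genes had a median of −0.70 and melanocyte pigment genes of −0.69 over 10 tumors, cell cycle genes −0.59, and 0 of their 19, 15 and 24 genes met the limits for falling. Over 8 tumors these medians were −0.48, −0.50 and −0.38. Erythroid and platelet genes had −0.53 over 10 and −0.71 over 8 tumors, and 0 of 8 fell. Hypoxia and glycolysis genes had a median of −0.10.

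Among the 12 genes closest to the falling order, Grpel1, a co-chaperone of mitochondrial protein import, was 6.88 in tumor 7, 6.17 in tumor 2 and 5.83 in tumor 5. Psmc4, an ATPase of the proteasome, was 8.04, 7.57 and 7.14 in the same tumors, and Bpgm, the bisphosphoglycerate mutase of glycolysis and red cells, 6.06, 6.22 and 5.36. Cox16, an assembly factor of cytochrome oxidase, was 2.18, 1.48 and −0.40 at a mean of 2.01 CPM. Plrg1, Arl2bp, Ung, Lrrc14, Bfsp2, Grik4, Gm45495 and Gm13268 completed the 12. Of the falling genes, 41 (22.9%) were processed pseudogenes, against 4 (1.5%) of the rising and 10.6% of all genes, and reads on such copies may stem from their parent genes. Rising protein-coding genes had a median exon length of 5012 bases, falling ones 3183 and all 4356.

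Several measures of the libraries moved with the order. Spearman's rho with Ptprc was 0.64 for the TMM factor, 0.65 for the number of genes with a count, −0.67 for the share of reads on the 10 most abundant genes, and 0.02 for the total count. The mean log2 CPM of the longest 20% of protein-coding genes minus that of the shortest 20% ran from 1.26 in tumor 3 to 1.94 in tumor 10, with a rho of 0.43 with Ptprc over 10 and 0.27 over 9 tumors, and across genes the rho of exon length with the genes' own rho was 0.20. Ptprc itself has 18313 bases of exon. Their part in the relations above was not tested.

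When the tumors were ordered by the 20 pan-leukocyte genes in place of Ptprc, 429 genes rose and 190 fell by the same limits. Of these, 2 were shared with the rising genes, Calcrl and Myoc (0.749% of the 267). They are 0.47% of the 429, while 1.72% of all 15559 genes rose by the Ptprc order. Of the 190, 0 were shared with the falling genes, while 1.15% of all genes fell by the Ptprc order.

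The Ptprc relation was then tested in the tumor types that had not been used to choose genes, with edgeR's quasi-likelihood test of the slope on the log2 CPM of Ptprc. A slope of 1 means that a gene doubles when Ptprc does. In IFNα4 tumors 818 of 15951 genes (5.13%) had a positive and 705 (4.42%) a negative slope at an adjusted p under 0.05. In IFNα9 tumors 377 of 15888 genes (2.37%) were positive and 120 (0.755%) negative. These calls rested on few tumors. Without IFNα4 tumor 1, which had the highest Ptprc of its type, 269 and 178 genes were called. Without IFNα9 tumor 5, which had the lowest Ptprc of its type, 10 and 1 genes were called, and without the 2 tumors farthest from the median 0 genes were called in either type with edgeR, the only tool run there, although 1182 and 1455 in IFNα4 and 590 and 300 in IFNα9 tumors had an unadjusted p under 0.05.

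Of the 267 genes that rose in the control tumors, 53 (19.9%) were called positive and 3 negative in IFNα4 tumors, and 41 (15.4%) positive and 0 negative in IFNα9 tumors. Their median slopes were 0.19 and 0.29, against −0.03 and 0.00 for all genes, and 187 and 238 of the slopes were above 0. Of the falling genes, 31 of 175 tested (17.7%) were called negative in IFNα4 and 21 of 178 (11.8%) in IFNα9 tumors, with 0 called positive in either by edgeR, and median slopes of −0.31 and −0.30. In each type both shares lay above those of all genes given before. Without IFNα9 tumor 5, 2 rising and 0 falling genes were called in that type, and without IFNα4 tumor 1, 26 rising and 1 falling gene in the other. With the difference between long and short genes as a second covariate, 16 rising and 0 falling genes were called in IFNα4 tumors.

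**Figure D5:**
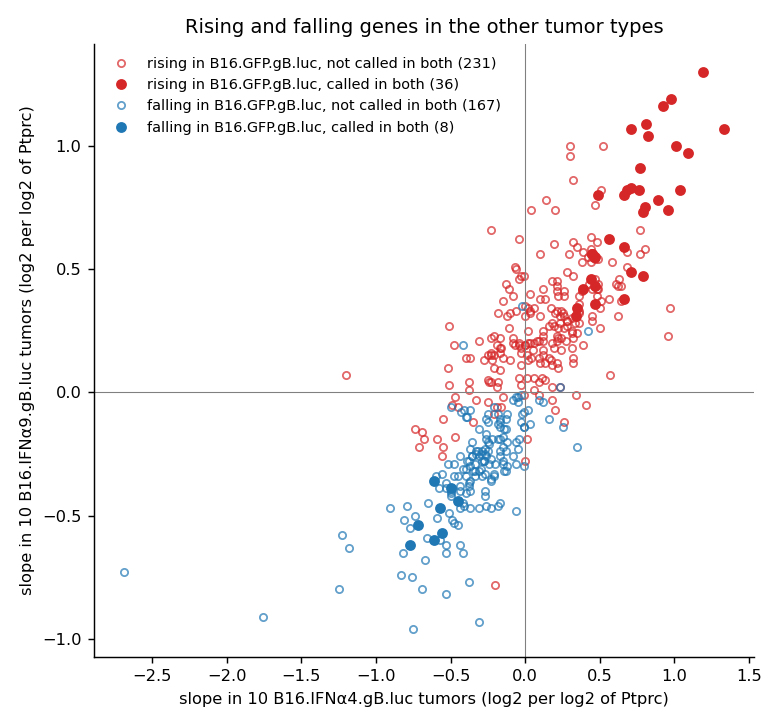
Slope of each rising (red) and falling (blue) gene on Ptprc, in log2 units per log2 unit of Ptprc, in 10 IFNα4 tumors (x axis) and 10 IFNα9 tumors (y axis). Filled points are the 36 rising and 8 falling genes called in the same direction in both types by edgeR; 238 red points lie above 0 on the y axis, and genes without a slope in both types are not drawn.

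In both types 36 rising genes were called positive, against 1.89% of the 15571 genes tested in both, and 8 falling genes negative, against 0.321%. Klrk1, an immune receptor closest to the order in control tumors, was among the 36. It had slopes of 1.01 ± 0.11 (SE, adjusted p = 0.000412) and 1.00 ± 0.10 (adjusted p = 0.000656) in IFNα4 and IFNα9 tumors, a doubling for each doubling of Ptprc. Klri2, a lectin-like receptor of NK cells, had 1.33 ± 0.18 and 1.07 ± 0.18, at a mean of only 1.32 CPM in control tumors. Gm1966, Gm15930 and 9930111J21Rik2, also among the steepest, have near-identical copies in the genome or lack a described function, and their reads may have been split among copies.

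Ikzf1, the Ikaros transcription factor of lymphoid and myeloid cells, had slopes of 0.76 ± 0.09 and 0.82 ± 0.09. Aim2, a sensor of cytosolic DNA, had 0.89 ± 0.13 and 0.78 ± 0.10, Slfn5 0.66 ± 0.10 and 0.59 ± 0.14, and Slamf7, a receptor of NK and plasma cells, 1.04 ± 0.12 and 0.82 ± 0.09. Nod2, Sema3c and Mrgprb1, among the closest to the order in control tumors, were called in neither type, with slopes of −0.03 ± 0.17, 0.28 ± 0.20 and −0.06 ± 0.24 in IFNα4 and 0.47 ± 0.23, 0.29 ± 0.11 and 0.33 ± 0.21 in IFNα9 tumors. Of the 12 genes closest to the rising order, Klrk1, Tent5a and Slfn5 were called in IFNα4 and Klrk1 and Slfn5 in IFNα9 tumors, and of the 12 closest to the falling order, of which Grik4 was not tested in IFNα4 tumors, 0 were called in either by edgeR.

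The 8 falling genes called in both were Gm10221, Sardh, Pebp1, Gm4853, Atp5l, Bod1, Uqcrfs1 and Ubac1. Of these, Gm10221 and Gm4853 are processed pseudogenes, and their reads may stem from their parent genes. As given above, no falling gene stayed called in IFNα9 tumors without tumor 5. The same held in IFNα4 tumors with the difference between long and short genes as second covariate. Sardh, the sarcosine dehydrogenase of mitochondria, had slopes of −0.61 ± 0.17 (SE, adjusted p = 0.041) and −0.60 ± 0.14 (adjusted p = 0.0475). Pebp1, an inhibitor of the RAF kinase, had −0.56 ± 0.15 (adjusted p = 0.0323) and −0.57 ± 0.09 (adjusted p = 0.00712). Uqcrfs1, the iron-sulfur subunit of respiratory complex III, had −0.50 ± 0.13 and −0.39 ± 0.09.

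The gene lists were counted in the same fits, in which 5.13% and 2.37% of all genes were called positive in IFNα4 and IFNα9 tumors. The IFNα9 counts rest on tumor 5, without which only 10 genes in all were called positive and 1 negative, and the IFNα4 counts in part on tumor 1 (269 and 178 without it). Among NK cell genes, 11 of 13 were called positive in each type, with median slopes of 1.21 and 1.01, the highest positive medians of the lists in both types. Of 20 pan-leukocyte genes 10 and 9 were called positive, of 17 Fc receptor and phagocyte genes 9 and 9, of 14 IFN-γ-induced genes 6 and 8, and of 27 ISGs 16 and 5. Classical dendritic cell genes, the list with the highest median rho over 10 control tumors, gave 1 and 0 of 14, and mast cell and basophil genes 0 and 0 of 8 by edgeR, which is near the share of all genes for lists of this size. Oxidative phosphorylation genes were called negative in 8 and 4 of 20, against 4.42% and 0.755% of all genes. With the long-short difference as second covariate, negative calls over all genes went from 705 to 110 in IFNα4 tumors, of which 56 were shared. In IFNα9 tumors they went from 120 to 455, of which 39 were shared. The list was not counted in that setting. All 14 skeletal muscle genes were called negative in IFNα4 tumors, where their median slope was −1.31, and 0 by edgeR in IFNα9 tumors, at a median of −0.84.

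Promoters of the genes that move with Ptprc were searched for sequence they share. Windows of 250 bases before the start were taken from RefSeq for GRCm38.p6, which held 201 of the 267 rising and 111 of the 179 falling genes. On either strand, GAGGAAGT, a site of the leukocyte factor PU.1, stood in 2.99% of rising and 0.901% of falling genes. The share was 3.14% over all 10525 genes with a window for which rho was computed, whether or not they followed the order. The interferon-stimulated response element, searched as GAAA, any 2 bases and GAAA, stood in 4.48% and 1.80% against 3.46%, and CATGTG, the core bound by the melanocyte factor MITF, in 11.4% and 7.21% against 10.0%. Of all 27025 genes with a window, 2.79%, 3.46% and 13.8% held these letters. The promoters of Klrk1 (chr6:129623865-129624114, minus strand) and of Ifi214 (chr1:173535958-173536207, minus strand), which rose in control tumors and were called positive in both other types, are shown because Klrk1 stood closest to Ptprc and held none of the 3 motifs, while Ifi214, an interferon-inducible gene of a family of close copies, held the response element, in capitals.
Klrk1: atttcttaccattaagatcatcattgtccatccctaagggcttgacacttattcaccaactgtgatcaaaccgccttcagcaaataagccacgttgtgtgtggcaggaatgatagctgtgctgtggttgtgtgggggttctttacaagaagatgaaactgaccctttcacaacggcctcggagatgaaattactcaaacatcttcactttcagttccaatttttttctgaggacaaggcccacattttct
Ifi214: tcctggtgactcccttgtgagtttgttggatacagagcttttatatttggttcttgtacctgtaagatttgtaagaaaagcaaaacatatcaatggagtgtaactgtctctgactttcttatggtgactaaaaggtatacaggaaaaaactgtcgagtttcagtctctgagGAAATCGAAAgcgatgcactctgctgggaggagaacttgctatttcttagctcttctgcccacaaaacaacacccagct
Ifi214 had slopes of 0.96 ± 0.10 and 0.74 ± 0.10 on Ptprc in IFNα4 and IFNα9 tumors, next to those of Klrk1 given above. A match of letters is a description and not a site.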

How the data were processed

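Stranded mRNA libraries of 30 whole tumors were read from 1 end for 50 bases. Per the labels and the paper, the authors checked reads with FastQC 0.11.3, aligned them with HISAT2 2.0.4 (versions from the submitters' processing notes) to a mouse genome given as mm10 in those notes and as another build in the paper, and used summarizeOverlaps to count them. The table they deposited holds raw counts. The overlap mode, the strand setting and the treatment of multi-mapping reads are not given in the sources used here, so genes that overlap, lie antisense or have near copies are uncertain. Symbols and coordinates came from GENCODE M21 (GRCm38), which held 39495 of 39676 identifiers. The 30 samples were separate tumors by their labels, and no 2 columns were identical.

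A gene was kept where it averaged 10 counts or more in the tumors of that fit. Libraries were scaled by TMM within a type, and log2 CPM took a prior count of 2. In control tumors, Spearman's rho with Ptprc was computed over 10 tumors and over 9 without the tumor farthest from the median, with a limit of 0.8. In the other types, slopes on the log2 CPM of Ptprc were tested with edgeR 4.0.16 (quasi-likelihood, R 4.3.3) with Benjamini-Hochberg adjustment over all genes tested and a threshold of 0.05, and standard errors were derived from the F statistic. Both steps were also run on simulated counts with known slopes, in which genes varied independently. Those counts lack the shared variation of real tumors, so the run does not show how the steps perform here. Figures were drawn with matplotlib 3.10.9.

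The members, the gene lists and the rules were chosen with earlier results of these data known. Named genes were Ptprc, the 12 highest and 12 lowest by the weaker rho, the most abundant and the most and least related genes of each list, and the 6 rising and 6 falling genes with the steepest slopes called in both other types. Not every gene under this rule is reported here. Genes named outside this rule, chosen after their values were seen, are Calcrl, Myoc, Xcr1, Flt3, Uqcrfs1, Cox4i1, Ubac1, Slamf7, Aim2 and Ifi214. Coro1a and Dock2, also outside it, are named only as members of the pan-leukocyte list. Alternatives covered scaling, filters, the correlation measure, the order, the covariate, DESeq2 1.42.0 in place of edgeR and tumors left out.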

Additional observations from a re-analysis of the deposited data

Results flagged for a closer look

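Ptprc in each tumor type, and Xist, list means and library measures in B16.GFP.gB.luc tumors, made 44 measures over 10 tumors each. In these, the gap of the lowest or highest tumor to its neighbour was compared with the range. It passed Dixon's 95% limit for 10 values in 16 measures, a limit that chance passes in about 1 in 20 independent groups. All 16 were control tumor 7. Because tumor 7 was singled out by its Ptprc, and the lists share cells and these same tumors, the values are a description and no test.

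Tumor 7 was lowest for Ptprc (log2 CPM 4.17, next tumor 5.59) and Xist (5.05, next 8.08). Among the means of immune lists it was lowest for monocyte genes (3.31, next 4.21), macrophage genes (4.48, next 5.52), NK cell genes (−0.81, next 0.39), T cell genes (−0.51, next 1.01) and ILC2 and type 2 genes (1.86, next 2.81). It was also lowest for chemokine and chemokine receptor genes (2.47, next 3.56), Fc receptor and phagocyte genes (3.92, next 4.87), ISGs (3.88, next 4.92) and IFN-γ-induced genes (2.60, next 3.77). Dedifferentiation and neural crest genes (4.02, next 5.27) and immediate early genes (3.66, next 4.75) were lowest there too. Tumor 7 was highest for melanocyte pigment genes (8.78, next 7.99), cell cycle genes (7.48, next 6.95) and oxidative phosphorylation genes (8.76, next 8.12).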

How the results depend on the processing

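No paired analysis was possible because every relation was computed within 1 tumor type, in which each replicate number occurs once. In control tumors, 267 genes rose and 179 fell. The rising count was 605 with scaling by library totals (137 fell), 429 by the pan-leukocyte order, 56 with a limit of 0.9, 482 over all 10 tumors only and 148 where the limit also held over 8 tumors. The falling count was 102 with Pearson's r, 30 with a limit of 0.9, 393 over 10 tumors only and 104 where it also held over 8. Leaving out each tumor gave 159 to 411 rising and 103 to 368 falling genes.

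In B16.IFNα4.gB.luc tumors, 818 positive and 705 negative calls became 1301 and 1193 with DESeq2 and 254 and 149 with the pan-leukocyte genes as covariate. With the long-short difference as second covariate they became 364 and 110, and over 8 tumors 0 and 0 by edgeR (1182 and 1455 at an unadjusted p under 0.05). Leaving out each tumor gave 269 to 878 and 178 to 797. The 53 rising genes called became 10 with the pan-leukocyte covariate, 16 with the long-short difference and 0 over 8 tumors (26 to 54 without each tumor). The 31 falling genes called became 53 with DESeq2 and 2, 0 and 0 in those same settings (1 to 37 without each tumor).

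In B16.IFNα9.gB.luc tumors, 377 positive and 120 negative calls became 838 and 529 with DESeq2, 41 and 2 on the rank of Ptprc, 729 and 455 with the long-short difference, and 0 and 0 over 8 tumors by edgeR (590 and 300 at an unadjusted p under 0.05). Negative calls became 321 with library totals and 65 with the pan-leukocyte covariate. Leaving out each tumor gave 10 to 720 and 1 to 525. The 41 rising genes called became 75 with DESeq2, 8 on the rank, 19 with the pan-leukocyte covariate and 0 over 8 tumors (2 to 64 without each tumor). The 21 falling genes called became 61 with DESeq2, 41 with library totals, 11 with no filter, 7 with the pan-leukocyte covariate, and 0 both on the rank and over 8 tumors (0 to 51 without each tumor). Counts moved by over 1.5 times without control tumors 3, 6, 7 or 10, without B16.IFNα4.gB.luc tumors 1, 2, 3, 4, 5, 8 or 9, and without B16.IFNα9.gB.luc tumors 1, 2, 3, 4, 5, 7, 8 or 10. Fits over 8 tumors have fewer samples and a narrower range of Ptprc. The cause of these moves was not tested for any setting. The 8-tumor and long-short settings were chosen after seeing the data. For the 12 highest and 12 lowest genes by rho, 31 recomputed values fell short of the limit and 441 did not, and under the pan-leukocyte order all of these genes fell short. For the slopes of named genes that were called, 129 recomputed values lost the call and 357 kept it. Genes under about 10 counts were below the depth used.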
